A study of Sus scrofa with 35 samples.

Results

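Transcripts of the membrane and membrane skeleton of the red cell were followed in whole blood of 35 pigs, with 1 one-colour Agilent array for each pig. The list held 9 genes, namely LOC100525591 (glycophorin A), SLC4A1, RHCE, RHAG and AQP1 for proteins that span the membrane, and ANK1, SPTB, EPB41 and EPB42 for the skeleton beneath it. These genes were picked by name, and the difference between hot and thermoneutral pigs in these same arrays was known when they were picked. Probes were taken when the gene name in the array files was that of a member, which gave 13 probes of 7 genes. A further 2 probes carried older names and were added through the RefSeq gene table, 1 named RH that RefSeq calls RHCE and 1 named LOC100152957 that RefSeq calls EPB42. In all, 15 of 60305 distinct probes and 8 of 12179 named genes were members. RHAG matched no probe and is named only.

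The pigs were growing castrated males of 3 breeds. CR is the Creole breed, a local pig of the Caribbean, LW is Large White, a commercial breed, and F1 is the cross of Large White and Creole. Thermoneutral (TN) pigs were kept at 24 °C. Heat-stressed (HS) pigs carry a label of 30 °C, while the protocol text gives 32 °C for 5 d, and the study's methods say that some pigs had 1 day less of heat. There were 5 CR TN, 6 CR HS, 6 F1 TN, 6 F1 HS, 6 LW TN and 6 LW HS pigs. All TN pigs were slaughtered before the temperature was raised, so climate, day of slaughter and age at slaughter cannot be told apart. The study also reports lower feed intake in the heat than before it, which was not separated from climate here. The methods describe blocks of littermates spread over the climates, and since the labels do not give the litter, litter, pen, sire and dam were not used here.

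Blood was taken at slaughter and holds red cells, platelets and white cells together. Circulating mature red cells of mammals have no nucleus, and most of the red cell RNA in blood sits in reticulocytes, the young cells that have just left the marrow. Glycophorin A and band 3 (SLC4A1, the anion exchanger) are the main proteins of the red cell surface, and the Rh proteins and aquaporin 1 (AQP1, a water channel) lie beside them. Ankyrin 1 (ANK1) and the protein encoded by EPB42 tie band 3 to the net of spectrin under the membrane, of which SPTB is the beta chain. The product of EPB41 joins spectrin to short actin filaments and to glycoproteins of the membrane. In such bulk samples, fewer reticulocytes in the blood and less of a transcript in each of them cannot be told apart.

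Each value below comes from a probe of 60 bases. A few probe sequences are shown because the results turn on which probe of a gene is read. Both SLC4A1 probes and both SPTB probes are given since they behaved differently within a gene, and an AQP1 and an EPB42 probe since they separated the F1 groups. A glycophorin A probe is given since its difference was the largest of the members in size. Capitals mark the letters AATAAA, the usual signal for adding a poly(A) tail, and for the probes of SLC4A1 (O801), AQP1 and glycophorin A only a window of 30 bases is printed.
SLC4A1 probe O801, bases 12 to 41: ctccatggttgaAATAAAatggggtgagag
SLC4A1 probe A_72_P070746: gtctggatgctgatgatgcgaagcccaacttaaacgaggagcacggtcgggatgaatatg
SPTB probe A_72_P478706: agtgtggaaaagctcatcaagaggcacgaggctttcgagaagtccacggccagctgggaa
SPTB probe A_72_P076741: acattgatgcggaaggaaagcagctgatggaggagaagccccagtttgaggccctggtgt
AQP1 probe O8316, bases 31 to 60: aagctggccaaagtcacttcccaaagatcc
EPB42 probe O5966: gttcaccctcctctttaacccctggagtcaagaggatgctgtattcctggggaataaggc
LOC100525591 probe A_72_P083231, bases 15 to 44: tatttccaagtgAATAAAaatccatatggc

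AATAAA was present on the printed strand of 3 of the 15 member probes, those of SLC4A1 (O801), LOC100525591 (A_72_P083231) and RHCE, and in 10.3% of all 60305 probes. Its reverse complement TTTATT was present in 4.32% of all probes. Probe O801 also ended in a run of 6 A. A reading frame without a stop codon ran through 14 of the 15 member probes, against 80.3% of all probes. Only 2 member probes shared 20 or more bases in a row with another probe of the array. The same 60 bases as SLC4A1 probe A_72_P070746 stood on the array a second time as a probe without a gene name, and the values of that copy followed it with a Pearson r of 0.996 over 35 pigs. ANK1 probe O5131 shared such a run with a probe that carried no gene symbol, whose values followed it with r = 0.997. Probes O801 and A_72_P070746 of SLC4A1 shared no such run with each other.

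All 15 probes were well above background on all 35 arrays and were in the authors' table of log2 values, so no member was lost to a filter. On that scale 14 of 15 member probes were lower in HS than in TN pigs in a model with breed and climate, as were 40.2% of all probes. The median difference over the members was -0.76, with a range of -1.68 to 0.27, beside a median of 0.06 over all 39072 probes of the table. By limma with Benjamini-Hochberg adjustment at 0.05, 12 of 15 member probes were past the threshold, 11 lower and 1 higher in HS pigs. In the whole table the share called was 34.8%, with 14.7% lower and 20.1% higher. The members were chosen with this contrast in view, so these counts describe them and support nothing. Without the F1 pigs, limma called 0 member probes and 0 probes of the table in the remaining 23 pigs (10 and 6845 at an unadjusted p under 0.05). The difference then was -0.90 for glycophorin A (A_72_P442764), -0.89 for RHCE, -0.69 for EPB41 (O10517) and -0.58 for EPB42 (A_72_P028986), and -0.52, -0.42 and -0.31 for the AQP1 probes A_72_P368933, O8316 and A_72_P302884.

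**Figure D1:**
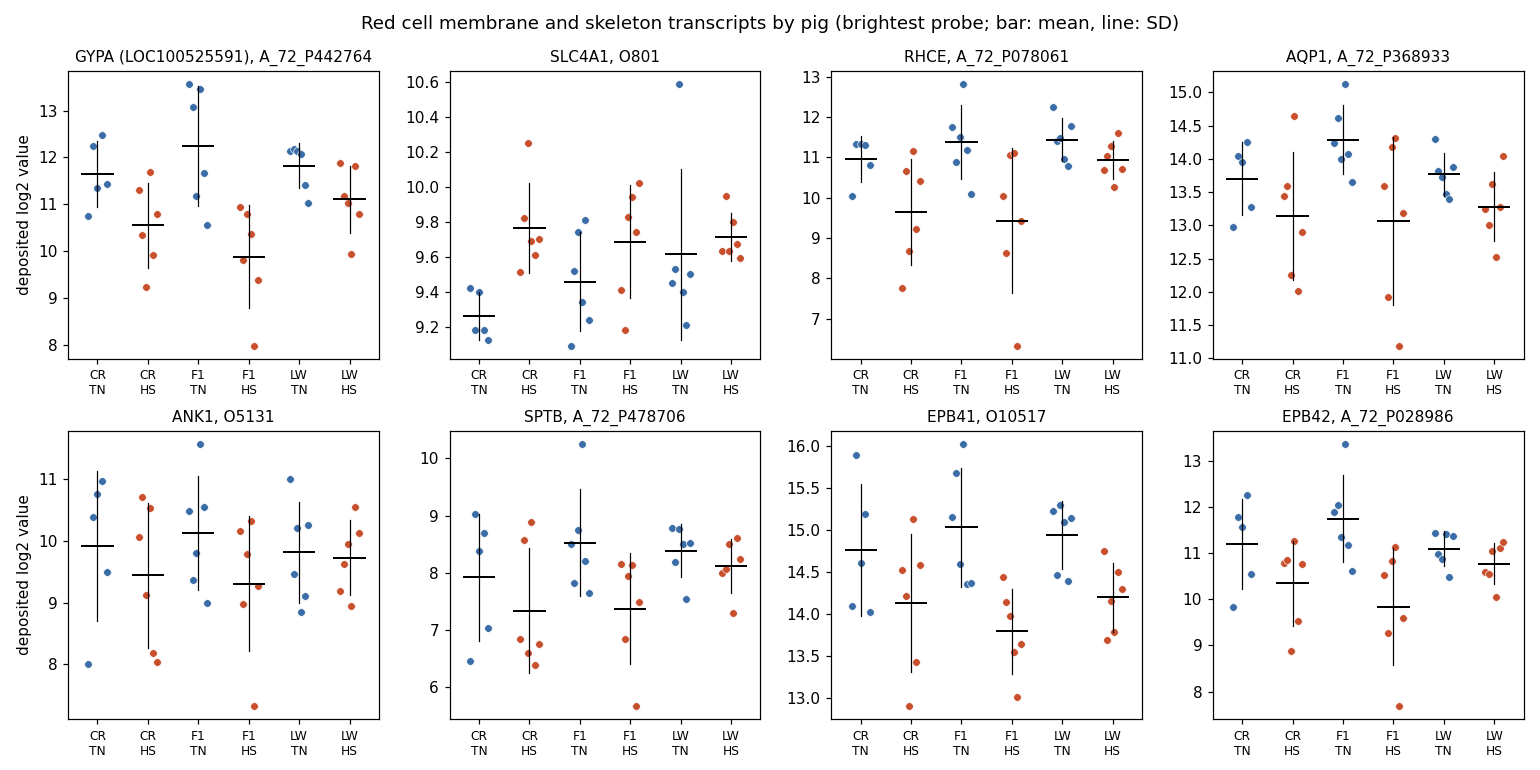
Deposited log2 value (y axis) of the brightest probe of each measured gene in every pig, for 6 groups of breed and climate (x axis). Points are pigs (blue TN, red HS), horizontal bars are group means and vertical lines 1 SD. In 7 of the 8 genes, all but SLC4A1, the lowest group mean is that of an HS group.

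Glycophorin A, the abundant sialic acid carrier of the red cell surface, had the largest difference. Its brightest probe (A_72_P442764) read 10.74, 11.34, 11.44, 12.24 and 12.48 log2 in the 5 CR TN pigs. In CR HS pigs it ran from 9.23 to 11.68 with a median of 10.57. Those of F1 TN pigs lay between 10.56 and 13.57 (median 12.37), and those of F1 HS pigs between 7.98 and 10.94 (median 10.09). All 6 F1 HS pigs were below the F1 TN mean, although the groups overlapped. In LW pigs the range was 11.02 to 12.17 in TN (median 12.10) and 9.94 to 11.88 in HS (median 11.10), and the ranges overlapped there as well. The difference of HS minus TN over all pigs was -1.41 ± 0.31 log2 (SE, 35 pigs), a 2.65-fold lower signal. By breed it was -1.10 ± 0.52 in CR, -2.37 ± 0.50 in F1 and -0.72 ± 0.50 in LW pigs. The second probe (A_72_P083231) gave -1.68 ± 0.34 over all pigs and -2.54 ± 0.56 in F1 pigs.

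The 2 probes named SLC4A1 (band 3) gave opposite directions. Whether probe O801 reads band 3 was not checked against a genome, so its values are those of a probe that the array files name SLC4A1. The brighter one (O801) was higher in HS pigs, by 0.27 ± 0.10 log2 (SE, 35 pigs). It read 9.12, 9.18, 9.18, 9.40 and 9.42 in CR TN pigs and 9.51 to 10.25 (median 9.70) in CR HS pigs, with no overlap. This lack of overlap, upward in CR pigs, held for 0.417% of all probes of the table. In F1 pigs the values were 9.09 to 9.81 in TN (median 9.43) and 9.18 to 10.02 in HS (median 9.79). In LW pigs they were 9.21 to 10.59 in TN (median 9.48) and 9.59 to 9.95 in HS (median 9.65). The groups of F1 and of LW pigs overlapped, and 3 of 18 HS pigs were below the TN mean of their breed. The adjusted p of this probe passed the threshold in 20 of 35 refits that each left out 1 pig. It did not pass when probes of every brightness were kept (adjusted p = 0.0509 by limma, 0.27 log2).

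The dimmer probe of band 3 (A_72_P070746) differed by -0.58 ± 0.26 log2 (SE, 35 pigs), which did not pass the threshold. In CR TN pigs it read 8.26, 8.88, 9.24, 9.68 and 9.74, and in CR HS pigs 7.83 to 10.47 with a median of 8.60. F1 TN pigs had 8.55 to 10.73 (median 9.92) and F1 HS pigs 6.98 to 9.46 (median 8.55). LW TN pigs had 8.29 to 9.64 and LW HS pigs 8.60 to 9.54, each with a median of 9.25. The groups overlapped in each breed. The difference was -1.39 ± 0.42 in F1 pigs and 0.01 ± 0.42 in LW pigs, and the unnamed copy of this sequence gave -0.57 ± 0.26 over all pigs. With both probes of SLC4A1 averaged, the difference was -0.16 ± 0.15. That mean rests on the name of O801 as well.

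RHCE, which encodes an Rh protein of the red cell membrane, had 1 probe. It read 10.03, 10.82, 11.30, 11.32 and 11.33 in CR TN pigs and 7.76 to 11.16 (median 9.81) in CR HS pigs. F1 TN pigs lay between 10.09 and 12.82 (median 11.35). F1 HS pigs spread from 6.33 to 11.10 (median 9.74), the widest spread of any group and gene shown (SD 1.79, n = 6). In LW pigs the values were 10.78 to 12.24 in TN (median 11.44) and 10.26 to 11.59 in HS (median 10.88), with overlap in each breed. The difference was -1.25 ± 0.34 over all pigs, -1.31 ± 0.60 in CR, -1.94 ± 0.58 in F1 and -0.51 ± 0.58 in LW pigs.

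Aquaporin 1 was lower with all 3 of its probes, by -0.76 ± 0.24 (A_72_P368933), -0.75 ± 0.20 (O8316) and -0.64 ± 0.18 (A_72_P302884) log2. The brightest probe read 12.98, 13.28, 13.96, 14.04 and 14.26 in CR TN pigs and 12.02 to 14.64 (median 13.17) in CR HS pigs. It ranged from 13.66 to 15.13 (median 14.16) in F1 TN and from 11.19 to 14.32 (median 13.40) in F1 HS pigs. In LW pigs it ranged from 13.40 to 14.30 in TN (median 13.78) and from 12.53 to 14.04 in HS (median 13.25). These ranges overlapped in every breed. Probe O8316 separated the F1 groups, with 10.47 to 11.20 in TN and 8.49 to 10.25 in HS pigs. AQP1 is also made by endothelium, whose listed genes are given further below.

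Ankyrin 1 showed the smallest difference among the brightest probes that were lower in HS pigs, -0.46 ± 0.31 log2, which did not pass the threshold. CR TN pigs read 8.00, 9.49, 10.39, 10.75 and 10.97, and CR HS pigs 8.04 to 10.71 with a median of 9.59. F1 TN pigs read 9.0 to 11.56 (median 10.14) and F1 HS pigs 7.33 to 10.32 (median 9.53). LW TN pigs read 8.85 to 11.00 (median 9.84) and LW HS pigs 8.94 to 10.55 (median 9.78). The groups overlapped in each breed, and 10 of 18 HS pigs were below the TN mean of their breed. Its SD within the groups was 0.60 to 1.21.

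Beta spectrin had a bright and a dim probe. The brighter one (A_72_P478706) read 6.46, 7.04, 8.38, 8.69 and 9.02 in CR TN pigs and 6.38 to 8.88 (median 6.80) in CR HS pigs. It read 7.64 to 10.25 (median 8.36) in F1 TN and 5.67 to 8.15 (median 7.71) in F1 HS pigs, and 7.54 to 8.79 (median 8.51) in LW TN and 7.30 to 8.61 (median 8.15) in LW HS pigs. All 3 pairs of groups overlapped, and the difference of -0.67 ± 0.28 did not pass the threshold. It passed with 75th percentile scaling (-0.87), with normexp background correction (-0.62) and with slide as a factor (-0.69). The dimmer probe (A_72_P076741) varied less, with SDs of 0.13 to 0.28, and its difference of -0.39 ± 0.08 did pass. In F1 pigs it separated the groups, with 6.44 to 6.88 in TN and 5.70 to 6.08 in HS pigs.

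**Figure D2:**
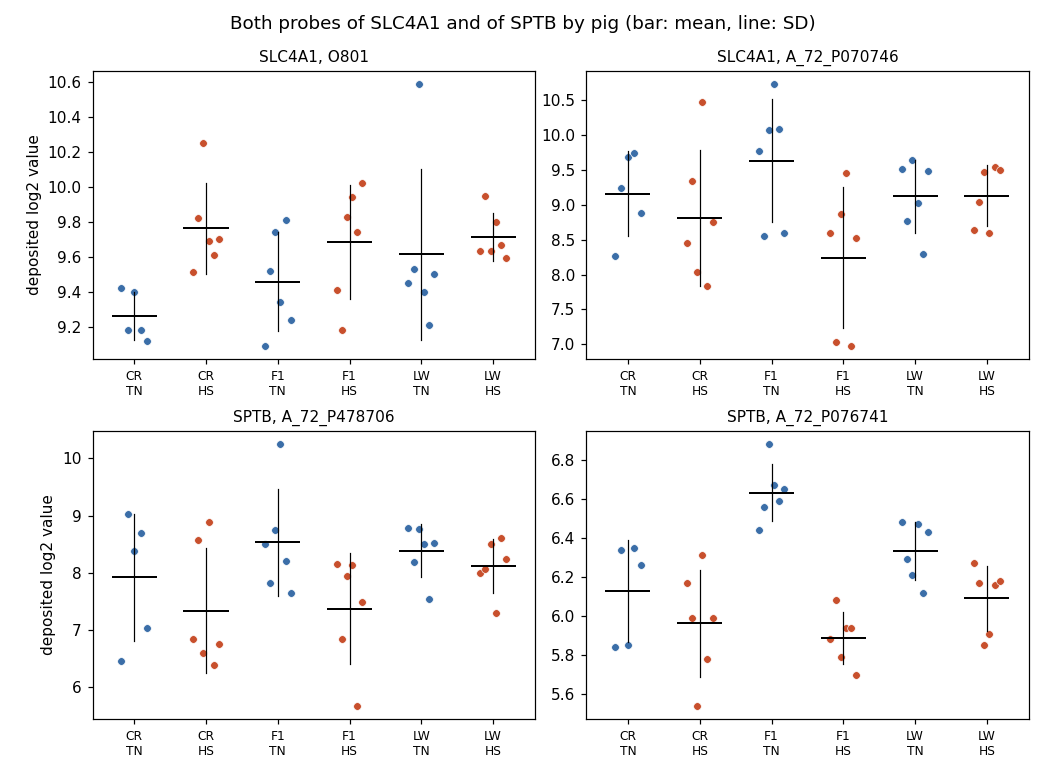
Deposited log2 value (y axis) of both probes of SLC4A1 (upper row) and of SPTB (lower row) in every pig by group (x axis). Points are pigs (blue TN, red HS), bars are means and lines 1 SD. SLC4A1 probe O801 is higher in HS pigs by 0.27 while A_72_P070746 differs by -0.58. The F1 groups do not overlap at SPTB probe A_72_P076741.

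EPB41, whose product joins spectrin to actin, was lower in HS pigs of each breed with 2 closely matching probes, by -0.88 ± 0.20 (O10517) and -0.93 ± 0.20 (A_72_P287809) log2. The brighter one read 14.03, 14.10, 14.61, 15.19 and 15.89 in CR TN pigs and 12.91 to 15.13 (median 14.38) in CR HS pigs. F1 TN pigs read 14.36 to 16.02 (median 14.88) and F1 HS pigs 13.02 to 14.44 (median 13.81). LW TN pigs read 14.39 to 15.30 (median 15.12) and LW HS pigs 13.69 to 14.75 (median 14.23). Of 18 HS pigs, 17 were below the TN mean of their breed, although the ranges overlapped. The difference in LW pigs, -0.74 ± 0.34, was close to that in CR pigs, -0.63 ± 0.36, while F1 pigs had -1.24 ± 0.34.

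EPB42, whose product binds band 3 and ankyrin, had the widest gap between the F1 groups among the skeleton genes. Its brighter probe (A_72_P028986) read 9.84, 10.54, 11.57, 11.79 and 12.25 in CR TN pigs and 8.88 to 11.26 (median 10.78) in CR HS pigs. It read 10.62 to 13.36 (median 11.62) in F1 TN and 7.69 to 11.13 (median 10.06) in F1 HS pigs. LW pigs read 10.49 to 11.44 in TN (median 11.17) and 10.06 to 11.24 in HS (median 10.83). At this probe the groups overlapped in every breed. The difference was -1.03 ± 0.29 over all pigs, -1.90 ± 0.48 in F1 and -0.32 ± 0.48 in LW pigs. The other probe (O5966) gave -0.92 ± 0.20 over all pigs and separated the F1 groups, with 8.72 to 10.33 in TN and 6.62 to 8.30 in HS pigs.

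In F1 pigs, 12 of 15 member probes were called, all lower in HS pigs, beside 38.7% of all probes called (17.9% lower). The F1 ranges did not overlap at 3 probes, O8316 of AQP1, A_72_P076741 of SPTB and O5966 of EPB42, and 8.08% of all probes had F1 HS pigs below F1 TN pigs in this way. Limma called 0 member probes and 0 probes of the table within CR or within LW pigs, with 6 and 3 member probes at an unadjusted p under 0.05 (8.87% and 8.71% of all probes). No member had LW HS pigs clear of LW TN pigs, which 0.0973% of all probes showed downward and 0.683% upward, and none had CR HS pigs clear below or F1 HS pigs clear above, as 0.0435% and 3.59% of all probes did. The median difference over the member probes was -0.58 in CR, -1.27 in F1 and -0.32 in LW pigs, against 0.03, 0.13 and 0.01 over all probes.

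**Figure D3:**
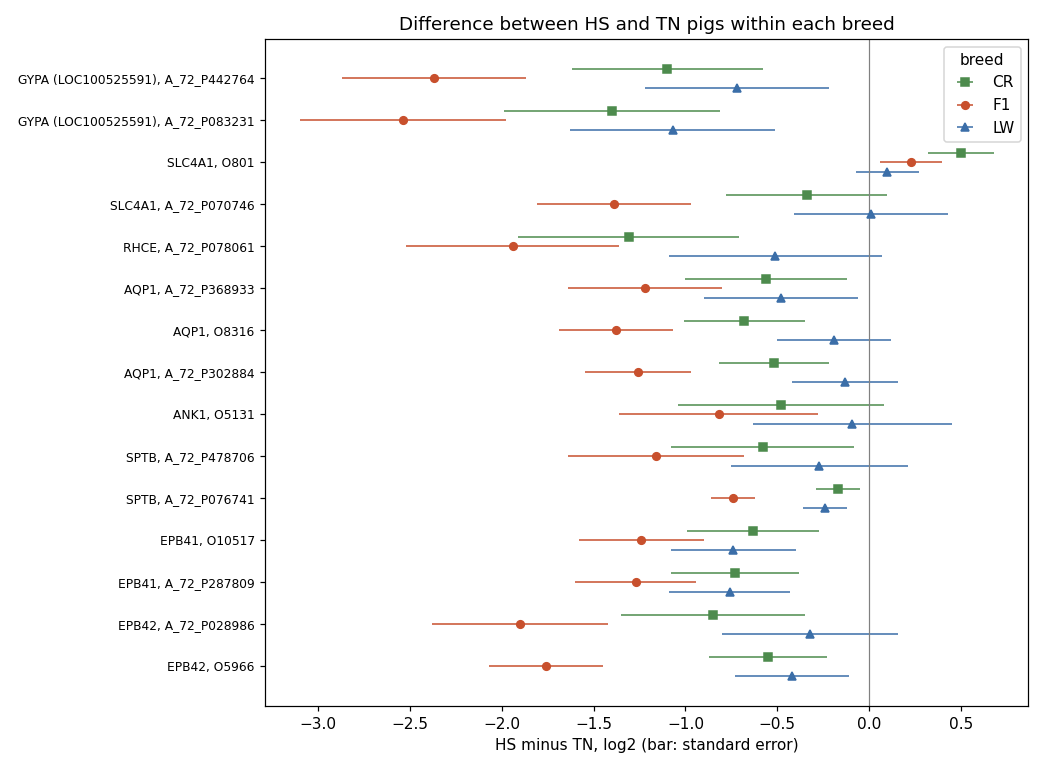
Difference of HS minus TN in log2 units (x axis) for each of the 15 member probes (y axis) within CR (squares), F1 (circles) and LW pigs (triangles), with bars of 1 standard error. The F1 point lies lowest at all probes except SLC4A1 O801, where all 3 points are at or above 0.10.

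The estimates were lower in F1 pigs than in LW pigs at 14 of 15 member probes, beside 42.4% of all probes. The difference between breeds in HS minus TN was not called at any member probe. The test of that difference between F1 and LW pigs gave -1.34 for EPB42 probe O5966 (95% interval -2.23 to -0.45, adjusted p = 0.122 by limma) and -0.50 for SPTB probe A_72_P076741 (-0.83 to -0.16, adjusted p = 0.122). For glycophorin A (A_72_P442764) it gave -1.65 (-3.08 to -0.22, adjusted p = 0.166), and for RHCE -1.43 (-3.09 to 0.23, adjusted p = 0.289). SLC4A1 probe O801, the 1 member probe above 0, gave 0.13 (-0.36 to 0.63, adjusted p = 0.767), and EPB41 (O10517) gave -0.49 (-1.47 to 0.48, adjusted p = 0.549). By limma 0 member probes and 0 probes of the table passed, with 7 member probes and 22.7% of all probes at an unadjusted p under 0.05. Between F1 and CR pigs 2 member probes and 11.8% of all probes, and between CR and LW pigs 0 member probes and 1.79%, had an unadjusted p under 0.05, again with 0 called. The F-test of breed by climate likewise called 0 probes, with 4 member probes and 14.9% of all probes at an unadjusted p under 0.05. With array weights limma called 9.99% of all probes for the difference between F1 and LW pigs, and 1 of 15 member probes, O5966 of EPB42 (-1.31 ± 0.39, adjusted p = 0.0392).

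No member probe was called between breeds, where limma called 1.08% of all probes for CR minus LW, 0.184% for F1 minus CR and 0.0256% for F1 minus LW. At an unadjusted p under 0.05 these contrasts held 1, 1 and 0 member probes, and 10.1%, 4.95% and 4.48% of all probes. Within HS pigs limma called 0.392% of all probes for CR minus LW and 0.00768% for F1 minus LW (9.86% and 8.23% at an unadjusted p under 0.05, with 1 and 4 member probes). Within TN pigs it called 0 probes for F1 minus LW (17.2% at an unadjusted p under 0.05, with 4 member probes) and 0.0256% of all probes for F1 minus CR (15.4% at an unadjusted p under 0.05, with 4 member probes). In the latter SPTB probe A_72_P076741 was 0.50 higher in F1 pigs (95% interval 0.25 to 0.75, adjusted p = 0.148). Over both climates the largest breed difference was that of RHCE, 0.88 log2 lower in CR than in LW pigs (-0.88, 95% interval -1.75 to -0.02, adjusted p = 0.476), and within HS pigs it was -1.28 (-2.46 to -0.11, adjusted p = 0.447). F1 HS pigs stood below LW HS pigs in RHCE (-1.5, 95% interval -2.67 to -0.33, adjusted p = 0.600). Among TN pigs, 2 AQP1 probes were higher in F1 than in LW, by 1.06 (O8316, 0.43 to 1.69) and 1.01 (A_72_P302884, 0.42 to 1.59), both with an adjusted p of 0.268. The brightest AQP1 probe (A_72_P368933) gave 0.52 there (-0.33 to 1.37, adjusted p = 0.483 by limma). Against the mean of the parental breeds, F1 pigs differed by -0.34 (-1.07 to 0.39) in RHCE to 0.40 (0.01 to 0.79) in AQP1 probe A_72_P302884, and 0 member probes were called beside 0.0717% of all probes (1 and 2.99% at an unadjusted p under 0.05).

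The order of the group means was alike over most members. F1 TN was highest at 13 of 15 probes, the exceptions being RHCE, led by LW TN, and SLC4A1 O801, led by CR HS. F1 HS was lowest at 12 probes. Neighbours in this order seldom stood apart. Of the 5 steps between neighbouring groups, none exceeded the pooled SD of the 2 groups at 7 probes, and 1 did at each of the other 8. That step was F1 TN over the next group at 5 probes, CR TN over LW HS at 2, and LW HS over CR HS at RHCE.

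One animal, replicate 5 of the F1 HS pigs, was the lowest of its group at 13 of 15 member probes and the lowest of all 35 pigs at 10. It read 6.33 in RHCE, 7.33 in ANK1 and 7.98 in glycophorin A (A_72_P442764). Without it the difference in F1 pigs went from -1.94 to -1.32 ± 0.49 in RHCE and from -1.90 to -1.47 ± 0.44 in EPB42 (A_72_P028986), and from -0.82 to -0.42 ± 0.52 in ANK1. AQP1 probe A_72_P368933 was no longer called in F1 pigs (-0.84 ± 0.39), and 11 of 15 probes were. SPTB probe A_72_P076741 and SLC4A1 probe O801 did not set this pig apart.

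Pigs of the same group also differed from each other in these genes together. After the group means were removed, the 21 pairs among the 7 genes other than SLC4A1 had Pearson r of 0.48 to 0.90 (median 0.77) over 35 pigs. All 21 passed a permutation test within groups (100000 permutations, two-sided, adjusted over 28 pairs). The closest pair was AQP1 with EPB42 (r = 0.90, rho = 0.90, p = 1e-05, adjusted p = 2.8e-05, the raw p being the smallest the permutations can give), and r was 0.88 without the 2 pigs farthest from the median of AQP1. ANK1 with SPTB had r = 0.87 (rho = 0.87, permutation p = 1e-05, adjusted p = 2.8e-05, r = 0.82 without the 2 farthest pigs). EPB41 with RHCE was the loosest of the 21 (r = 0.48, rho = 0.46, permutation p = 0.0066, adjusted p = 0.0088, r = 0.47 without the 2 farthest pigs). These points share the array and its normalization.

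Of the 2 probes named SLC4A1, 1 joined this pattern. Probe O801 had r of -0.25 to 0.07 with the other 7 genes, and 0 of 7 passed (smallest permutation p = 0.14). Probe A_72_P070746 had r of 0.46 to 0.87 with the same 7 genes, and 7 of 7 passed by r. By rank, EPB41 (rho = 0.36, adjusted permutation p = 0.12) and glycophorin A (rho = 0.43, adjusted permutation p = 0.062) did not pass. Without the 2 farthest pigs their r was 0.34 and 0.39. The strongest was SPTB (r = 0.87, rho = 0.86, permutation p = 1e-05, r = 0.84 without the 2 farthest pigs). The 2 probes of SLC4A1 had r = 0.23 with each other (rho = 0.30, permutation p = 0.22, adjusted p = 0.22 over 8 same-gene pairs, r = 0.30 without the 2 farthest pigs). For comparison, both EPB41 probes had r = 0.99 and both glycophorin A probes 0.97, while those of SPTB had 0.36 (rho = 0.33, permutation p = 0.079).

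**Figure D4:**
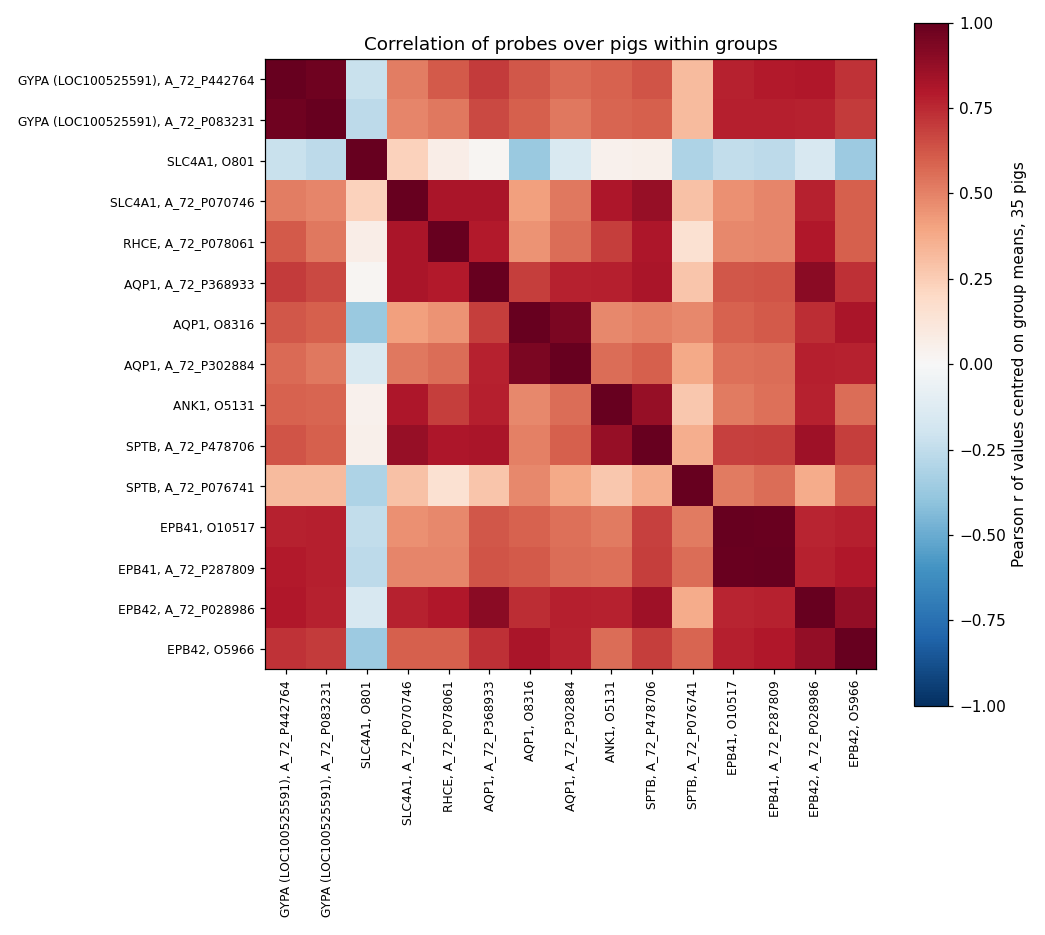
Pearson r between the 15 member probes (both axes) over 35 pigs after removal of the 6 group means, from -1 (blue) to 1 (red). Both EPB41 probes share r = 0.99, while SLC4A1 probe O801 is pale or blue against the other genes and SPTB probe A_72_P076741 is paler than A_72_P478706.

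The genes whose values most resembled a member within groups were taken from 9632 named genes, by Pearson r over 35 pigs and with no test. ANK1 was closest to KLF1 (r = 0.95), an erythroid transcription factor, then SLC22A23 (0.93) and ABCB6 (0.91). SPTB probe A_72_P478706 was close to TSPAN33 (0.90) and KLF1 (0.89). The other SPTB probe, A_72_P076741, was closest to VAV2 (0.83), CCL14 (0.81) and HSD17B3 (0.80). AQP1 probe A_72_P368933 was close to TSPAN33 (0.86) and PRDX2 (0.85), a red cell peroxiredoxin. AQP1 probes O8316 and A_72_P302884 were closest to HEMGN (0.88 and 0.86). EPB42 probe A_72_P028986 was closest to CLIC2 (0.91), TSPAN33 (0.91) and SOX6 (0.90), and probe O5966 to TEX10 (0.93), PPARG (0.92) and SNUPN (0.91). EPB41 was closest to MXI1 (0.91), TFDP2 (0.90) and UBE2R2 (0.90). Glycophorin A was closest to C4orf33 (0.95), C8H4orf33 (0.93) and ENDOD1 (0.90). The names C4orf33 and C8H4orf33 may stand for the same gene, which was not checked. RHCE had looser company, in the amino acid carriers SLC1A5 (0.80) and SLC38A5 (0.79) and in TMEM63B (0.79). SLC4A1 probe O801 was closest to NEK6 (0.89), METRNL (0.77) and LRRC42 (0.77), and the other SLC4A1 probe to TULP3 (0.87), CYP27A1 (0.86) and SLC19A1 (0.85).

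A wider list of 52 genes of the red cell membrane, its transporters and its skeleton had probes for 42. Of these, 4 were lower and 9 higher in HS pigs past the threshold and 29 did not pass, with a median difference of 0.02. Many of them are also made by white cells. Among the lowest were CA2, a carbonic anhydrase (-0.98 ± 0.31, adjusted p = 0.0150 by limma), and DMTN, which bundles actin at the skeleton (-0.84 ± 0.25, adjusted p = 0.0107). CD59 (-0.55 ± 0.28, adjusted p = 0.115) followed without passing. Among the highest were FLOT1, a lipid raft protein (0.45 ± 0.09, adjusted p = 0.00159), ABCC1, an export pump (0.41 ± 0.10, adjusted p = 0.00244), and ACTB, an actin (0.38 ± 0.10, adjusted p = 0.00427).

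Other genes of reticulocytes moved with the members. Of 22 listed, 15 had probes, and 7 were lower and 0 higher in HS pigs past the threshold, with a median of -0.38 (-0.94 in F1 pigs). Over all probes of the table, 14.7% were lower and 20.1% higher past the threshold. ALAS2, the first enzyme of heme synthesis in red cells, differed by -0.74 ± 0.19 and CA1 by -1.41 ± 0.35, whereas HBB, the beta globin gene, differed by -0.13 ± 0.09 and did not pass (adjusted p = 0.243). The mean log2 level of the 15 genes ran from 11.13 to 12.64 in F1 TN and from 10.03 to 11.42 in F1 HS pigs. It ran from 10.78 to 11.96 in CR TN, 10.38 to 11.81 in CR HS, 11.30 to 12.06 in LW TN and 10.88 to 11.61 in LW HS pigs. Within groups, ALAS2 had r of -0.51 to 0.83 with the 8 genes (median 0.52), and 7 of 8 passed. The highest was EPB41 (r = 0.83, rho = 0.82, permutation p = 1e-05, adjusted p = 0.00016 over 16 relations, r = 0.79 without the 2 farthest pigs). The lowest was SLC4A1 probe O801 (r = -0.51, rho = -0.48, permutation p = 0.0019, r = -0.47 without the 2 farthest pigs). RHCE did not pass (r = 0.41, adjusted permutation p = 0.068, r = 0.20 without the 2 farthest pigs). By rank ANK1 did not pass either (rho = 0.38, adjusted permutation p = 0.056). The part of reticulocyte number in the members' differences was not tested.

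Markers of the other blood cells were counted in the same way, beside 34.8% of all probes called. Past the threshold, 0 of 7 platelet genes, 0 of 7 neutrophil genes, 3 of 7 monocyte genes (higher), 3 of 8 T cell genes (higher) and 3 of 6 B cell genes (2 higher and 1 lower) were called. The median difference was 0.19 for platelet, -0.27 for neutrophil, 0.24 for monocyte, 0.12 for T cell and 0.24 for B cell genes, and the lists were not tested against each other. The mean level of the neutrophil genes ran from 10.81 to 13.24 in F1 TN and from 10.45 to 13.00 in F1 HS pigs, and that of the T cell genes from 9.63 to 10.03 and from 9.89 to 10.55. Of 5 endothelial genes, which bear on AQP1, 3 had probes in the table, and CDH5 and TEK had none. Of these 3, 1 was called, PECAM1, higher in HS pigs (0.51 ± 0.14, adjusted p = 0.00591 by limma). VWF (0.51 ± 0.42) and KDR (-0.03 ± 0.06) were not called, and KDR was well above background on only 25 of 35 arrays. Whether the PECAM1 signal came from endothelium was not tested. The mean level of the 3 genes was 6.84 to 8.45 in F1 TN and 7.14 to 8.27 in F1 HS pigs. The part of these cells in the members' differences was not tested.

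The brightness of the arrays differed between the climates in F1 pigs. The 75th percentile of the processed intensity was 112 to 329 over all arrays, and 112 to 186 in F1 TN against 172 to 266 in F1 HS pigs. The F1 means were 150 (TN) and 238 (HS), whereas CR means were 228 (TN) and 225 (HS) and LW means 204 (TN) and 202 (HS). Within groups, its log2 value had r of -0.63 to 0.09 with the 8 genes, and 6 of 8 relations passed, for instance EPB41 (r = -0.63, rho = -0.63, permutation p = 0.00082, adjusted p = 0.0033, r = -0.51 without the 2 farthest pigs). The part of array brightness was not tested. The arrays lay on 5 slides that each held both climates. In comparisons of HS and TN pigs within a slide, 67 of 70 values of the 14 probes other than O801 were below 0. The 3 exceptions, all on slide 2, were ANK1 (0.15), SPTB probe A_72_P478706 (0.14) and SLC4A1 probe A_72_P070746 (0.18). Probe O801 was above 0 on all 5 slides. These slide means took no account of breed, and on slide 5 the HS pigs were CR and F1 while the TN pigs were LW. The probes were read in the same pigs, so their values do not count as separate replicates. The share over all probes was not counted within slides.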

How the data were processed

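Scanning output came from Feature Extraction 10.10.1.1 per the file headers. The authors deposited scanner files with the median, mean, background and processed intensity of each spot, and a table of log2 values for 39072 probes, made from median intensity by quantile normalization, log2 transformation and a filter on expressed probes. The deposited log2 values were used here as they stand. The rule of the filter is not given in the sources used here. The study's methods name a pig genome build for the annotation, and coordinates on it were not used here. The log2 scale without background subtraction compresses differences of dim probes. Genes were named from the files and the RefSeq pig gene table.

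Members and gene lists were chosen with earlier results of these data known. Each gene is given by its brightest probe, the one with the highest mean log2 value over 35 pigs, with the other probes beside it. From the wider membrane list the 4 lowest and 4 highest differences are named. Some genes that the rules for named genes select are not reported here. Probe levels are not compared between genes. Each probe was fitted with limma 3.58.1 (lmFit and eBayes, two-sided) in R 4.3.3, with breed and climate for HS minus TN and breed contrasts, and with 6 group means for the rest. P-values were adjusted by Benjamini-Hochberg over 39072 probes at 0.05. SE treats pigs as independent, since litter, pen, day of slaughter, sire and dam of the study's model could not be fitted. Correlations were computed in Python 3 with values centred on group means. Groups came from the labels and pigs were numbered in record order. Precision is limited by the number of arrays. The fit was run on simulated data with independent noise for each probe and pig and the same shifts in every breed. Those data held no shared pen, litter or day, so they cannot test whether pigs are independent. Alternatives were other normalizations, background correction with an offset of 50, filters on dim probes, slide as a factor, array weights, an intensity trend, no F1 pigs, gene means and leaving out each pig. Correlations under other normalizations and with the other SLC4A1 probe were added after seeing the data.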

Additional observations from a re-analysis of the deposited data

Results flagged for a closer look

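Both values that stood apart from the rest of their group came from the same animal, LW TN replicate 3, among 90 combinations of probe and group. Its SLC4A1 probe O801 read 10.59 log2, the highest of the 6 pigs, with the nearest at 9.53. Its AQP1 probe O8316 read 8.85, the lowest of the group, with the nearest at 9.76. Chance alone marks about 1 in 20 such groups.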

How the results depend on the processing

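The count of 12 member probes called for HS minus TN stayed between 11 and 14 when each pig was left out in turn, and the whole table gave 11594 to 16429 called probes. It went to 0 without the F1 pigs, as did the count over the whole table (0 against 13601), with 14 of 15 differences still below 0. Member probes called within breeds stayed at 11 to 13 with each pig left out. For the difference between breeds in HS minus TN, the count was 0 and became 1 with array weights. Those weights took the whole table from 0 to 3902 called probes there. Array weights also took the whole table within LW pigs from 0 to 1111 called probes, with 0 member probes. Breed contrasts called 0 member probes under each alternative and with each pig left out. SLC4A1 probe O801 differed by 0.27 and was past the threshold in 20 of 35 refits with 1 pig left out. With both SLC4A1 probes averaged the difference was -0.16, a turned sign. The difference of O801 between F1 and LW pigs in HS minus TN, 0.13, ran from -0.06 (without LW TN replicate 3) to 0.23 with each pig left out. The causes were not tested. The count of 21 of 28 correlated pairs was 21 or 22 under the other normalizations and 28 of 28 with the second SLC4A1 probe. No paired analysis was possible because the labels do not give the litters that TN and HS pigs of a breed shared by the study's methods, and the replicate numbers here follow record order. Dim probes such as SPTB A_72_P076741 sit closest to background, where signal limits the size of a difference.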
